A study of Mus musculus with 8 samples.

Results

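The retina after 14 days of hyperoxia was compared with the retina after 7 days, on the 2 arrays labelled 14 days and the 2 labelled 7 days, out of 8 arrays in all. The day 14 and day 7 arrays held RNA from retinas of adult C57BL/6J mice, aged 80 to 120 days, that had been kept in 75% oxygen for that time. All mice, the controls included, were reared in dim cyclic light, and the other 4 arrays held control retinas (0 days) and retinas from 3 days in oxygen, with 2 arrays each. C57BL/6J is an inbred strain whose photoreceptors are sensitive to oxygen. Retinas of males and females were pooled for each time, and it is not stated whether each array had a pool of its own. The p-values therefore rest on the spread between arrays, which may be technical. The Affymetrix mouse genome array reads a transcript through 1 or more probe sets, each made of several short probes that match it near its 3' end. Values are log2 signals made with RMA and centred on the median of each probe set over the 8 arrays, so that they hold differences but no level, and the labelled tissue could not be checked by the level of its markers. A probe set was counted where both day 14 arrays lay on the same side of both day 7 arrays. This held for 20138 of 45037 probe sets (44.7%), and no control array enters these counts.

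Photoreceptors, the light-sensing rods and cones, make up most of the cells of the mouse retina, and breathing an oxygen-rich atmosphere for weeks damages and kills them. Müller cells span the retina and support its neurons. Together with astrocytes they answer injury with gliosis, in which the filament protein GFAP is made, while microglia, the resident immune cells, take up dying cells. Immediate early genes encode transcription factors such as FOS and EGR1 that are made briefly after a stimulus, before any new protein is needed.

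The array labelled day 14 replicate 2 stood apart. *Gapdh*, a glycolytic enzyme, has probe sets at the 3' end and at the 5' end of its transcript. The first minus the second, on centred values, was 0.05 and 1.43 on day 14 replicates 1 and 2, against 0.12 and -0.32 on day 7 replicates 1 and 2. For beta-actin, a part of the cytoskeleton, the same difference was -0.14 and 1.24 at day 14 and 0.18 and -0.94 at day 7. Only the array labelled day 3 replicate 2 had values near those of day 14 replicate 2, at 1.19 for *Gapdh* and 1.0 for beta-actin. Across 45037 probe sets, the centred values of day 14 replicate 2 correlated at r = 0.74 with day 3 replicate 2 and at 0.18 with day 14 replicate 1, and those of the day 7 arrays correlated at 0.02 with each other. The SD of the values over probe sets was 0.186 and 0.392 on day 14 replicates 1 and 2, and 0.226 and 0.41 on day 7 replicates 1 and 2. Day 14 replicate 2 and day 3 replicate 2 were thus closer to each other than to the remaining array of their own label. In the study's own clustering, the replicates of day 3 lay close together, as did those of day 14. Its GAPDH ratios between transcript ends were also alike within day 3 and within day 14. The arrays as labelled here differ from both. *Gapdh* stood at -0.29 on day 3 replicate 1, and the day 3 arrays correlated at -0.13 with each other. Whether labels were exchanged was not tested. If they were, neither the day 14 values nor those without day 14 replicate 2 would stand for 14 days alone, and arrays are called here by their labels. Most genes below are given for each array, and many lists also without day 14 replicate 2. A list given without that value was not thereby found stable. The part that this array's 3' to 5' difference has in any result was not tested.

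Both day 14 arrays lay above both day 7 arrays for 12619 probe sets (28.0%) and below them for 7519 (16.7%), so the more frequent direction was upward. Large differences ran the other way. With a difference of means of at least 2-fold (1 on the log2 scale), 233 of the non-overlapping probe sets (0.517%) were higher at day 14 and 931 (2.07%) were lower. Where every day 14 array was at least 2-fold from every day 7 array, 8 probe sets (0.0178%) were higher and 156 (0.346%) were lower. The share of higher probe sets was thus 62.7% of all non-overlapping ones, 20.0% of those with a 2-fold difference and 4.88% of those with a 2-fold gap. After a further quantile normalization, these shares were 53.6%, 34.8% and 23.5%. Small shifts upward lay in most genes, as the difference was positive for 11703 of 18193 genes (64.3%), with a median of 0.08 over all genes on the log2 scale. As means of their probe sets, 34.5% of all genes lay higher on both day 14 arrays and 14.4% lower. Every list count below is to be read beside these shares.

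**Figure D1:**
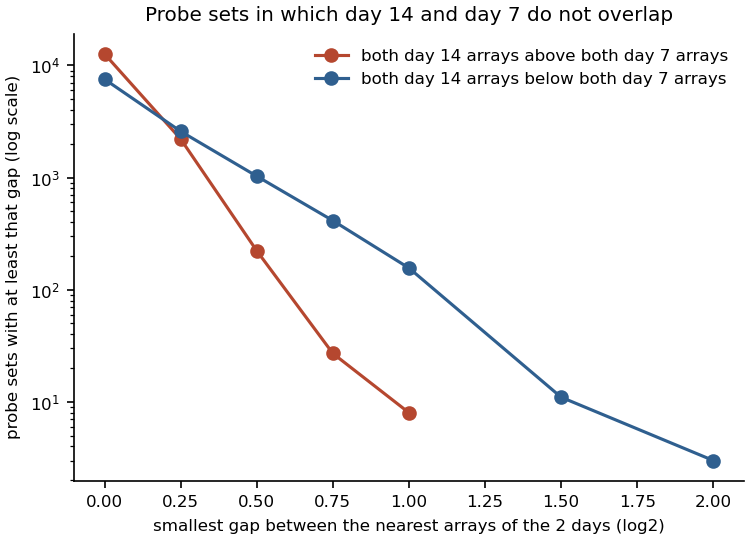
The number of probe sets (log scale) with at least a given gap between the nearest arrays of day 14 and day 7 (log2). At a gap of 0 the upward line (12619) lies above the downward one (7519). At 0.5 it lies below (222 against 1028), and at 1.5 the downward line alone goes on, with 11 probe sets.

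No probe set passed limma's test (4 group means fitted to all 8 arrays, Benjamini-Hochberg adjustment over 45037 probe sets), with a lowest adjusted p of 0.29. At an unadjusted p under 0.05 there were 2106 higher probe sets (4.68%) and 2527 lower ones (5.61%). A plain one-way analysis of variance between both times, without the cross gene error model that the methods name beside theirs, called 1618 higher and 1098 lower probe sets unadjusted and 1 after adjustment. An exact two-sided permutation of 2 against 2 arrays cannot give a p below 0.333. The differences described below are therefore measured differences between 4 arrays, of which none passed the test in limma.

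The differences of separate arrays were alike only in part. Across probe sets, day 14 minus day 7 in the replicate 1 arrays and in the replicate 2 arrays correlated at r = 0.18 (Spearman's rho = 0.19, n = 45037 probe sets, which are not independent), with an SD of 0.34 for the replicate 1 difference and 0.70 for the replicate 2 difference. With the numbers crossed the same correlation was 0.49, and the numbers were not taken to pair the arrays. The study tabulates its arrays as separate experiments that each hold all times, and whether a replicate number stands for such an experiment is not stated.

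**Figure D2:**
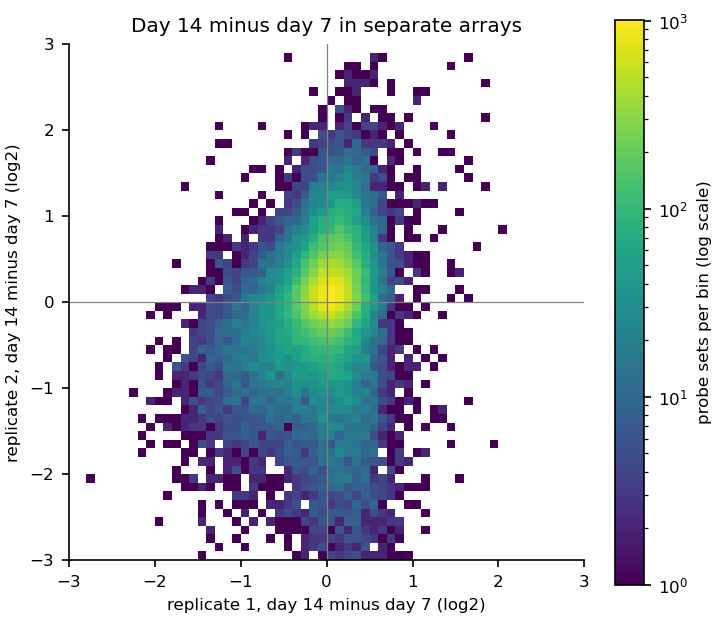
Day 14 minus day 7 of the replicate 2 arrays (vertical axis, log2) against that of the replicate 1 arrays (horizontal axis, log2), for 44746 of 45037 probe sets, with colour for the number of probe sets in a bin (log scale). The cloud is taller than it is wide (SD 0.70 against 0.34).

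Lens crystallins, the soluble proteins that make the lens refract light, had the widest gaps of the whole comparison, and they lay lower at day 14. Several gamma crystallin genes lie on chromosome 1 and resemble each other. Shown here are the 100 bases before the RefSeq start of 4 of them (GRCm38.p6, each in the direction of transcription), because they share an element. These bases lie outside the transcript and do not bear on whether probe sets of 1 gene read transcripts of another. Capitals mark TATATA, which reads the same on both strands and resembles the element that places the start of transcription.
Crygb, chr1:65082291-65082390, minus strand: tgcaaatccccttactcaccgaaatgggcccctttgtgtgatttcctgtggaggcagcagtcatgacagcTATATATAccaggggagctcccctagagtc
Crygd, chr1:65063441-65063540, minus strand: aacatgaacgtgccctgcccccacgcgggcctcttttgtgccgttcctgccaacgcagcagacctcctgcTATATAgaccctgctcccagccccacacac
Cryga, chr1:65103364-65103463, minus strand: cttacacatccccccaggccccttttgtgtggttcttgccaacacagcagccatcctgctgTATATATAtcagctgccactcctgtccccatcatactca
Crygf, chr1:65926422-65926521, plus strand: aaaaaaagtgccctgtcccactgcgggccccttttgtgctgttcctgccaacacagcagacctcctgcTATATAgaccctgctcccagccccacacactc
All 4 windows hold TATATA (as overlapping copies in *Crygb* and *Cryga*), against 2.19% of the same window before 32851 RefSeq starts. After alignment, 91 of 100 bases were identical between *Crygd* and *Crygf*, the closest pair, and 62 between *Crygb* and *Crygd*, the least alike. A match of letters is a description and no evidence that a factor binds there.

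*Crygb* stood at 0.72 and -0.83 on the day 14 arrays, against 3.41 and 6.15 on the day 7 arrays. The lowest day 7 array lay 2.70 above the highest day 14 array, the widest gap of any probe set that names 1 gene, and the difference of means was -4.84 ± 1.31 on the log2 scale (SE, n = 2 arrays each, adjusted p = 0.394 in limma). *Crygd* had 0.41 and -0.57 at day 14, against 2.82 and 6.82 at day 7, a difference of -4.90 ± 1.30. Of its close relative *Crygf*, only day 7 replicate 2 stood out, with -0.03 and 0.05 at day 14 and 0.01 and 4.85 at day 7, so that the days overlapped. *Cryga* gave 0.01 and -0.01 at day 14 and 0.24 and 2.07 at day 7, which did not overlap. Probe sets of these genes may read each other's transcripts, so the values of the gamma crystallins may not be separate measurements.

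*Cryab*, the alpha crystallin that is also a heat shock protein of glia and muscle, stood at 0.49 and -0.50 at day 14 and 2.41 and 2.65 at day 7, and all 3 of its probe sets lay lower. *Grifin*, a galectin-related protein of lens fibres, had 0.36 and -0.37 at day 14 against 1.80 and 2.08 at day 7. *Mip*, the water channel of lens fibres, had 1.23 and -1.23 at day 14 against 2.45 and 3.98 at day 7. In each of them the day 7 arrays lay together above the day 14 arrays. Their control arrays stood at -1.13 and 2.38 for *Cryab*, -1.06 and 1.63 for *Grifin* and -2.41 and 2.2 for *Mip*. These lay farther apart than the means of day 14 and day 7. In *Cryaa*, the other alpha crystallin, the control arrays spanned -3.03 to 3.45, with 1.77 and -1.77 at day 14 and 3.15 and 3.91 at day 7. The spread of *Cryaa* between arrays of 1 time was likewise as large as its difference of -3.53 ± 2.13.

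Over the lens list, 18 of 20 measured genes lay lower on both day 14 arrays (90.0%, against 14.4% of all 18193 genes) and 0 lay higher. The list's median was 0.41 and -0.65 on day 14 replicates 1 and 2, 1.81 and 3.25 on day 7 replicates 1 and 2, -1.46 and 1.0 on the control arrays and -1.25 and -0.51 at day 3. Lens transcripts thus differed between arrays of 1 time, the controls included. The median difference was -2.50, which was -1.76 without day 14 replicate 2 and -1.5 after quantile normalization. The lens is no part of the retina, and how much lens tissue came with each retina was not measured. *Col4a1* and *Nid1* make basement membranes, including those of retinal vessels and of the lens capsule. Both lay lower at day 14 like the lens list, with 0.07 and -0.25 at day 14 against 2.06 and 1.02 at day 7 for *Col4a1* and -0.09 and -0.04 at day 14 against 0.76 and 0.51 at day 7 for *Nid1*.

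**Figure D3:**
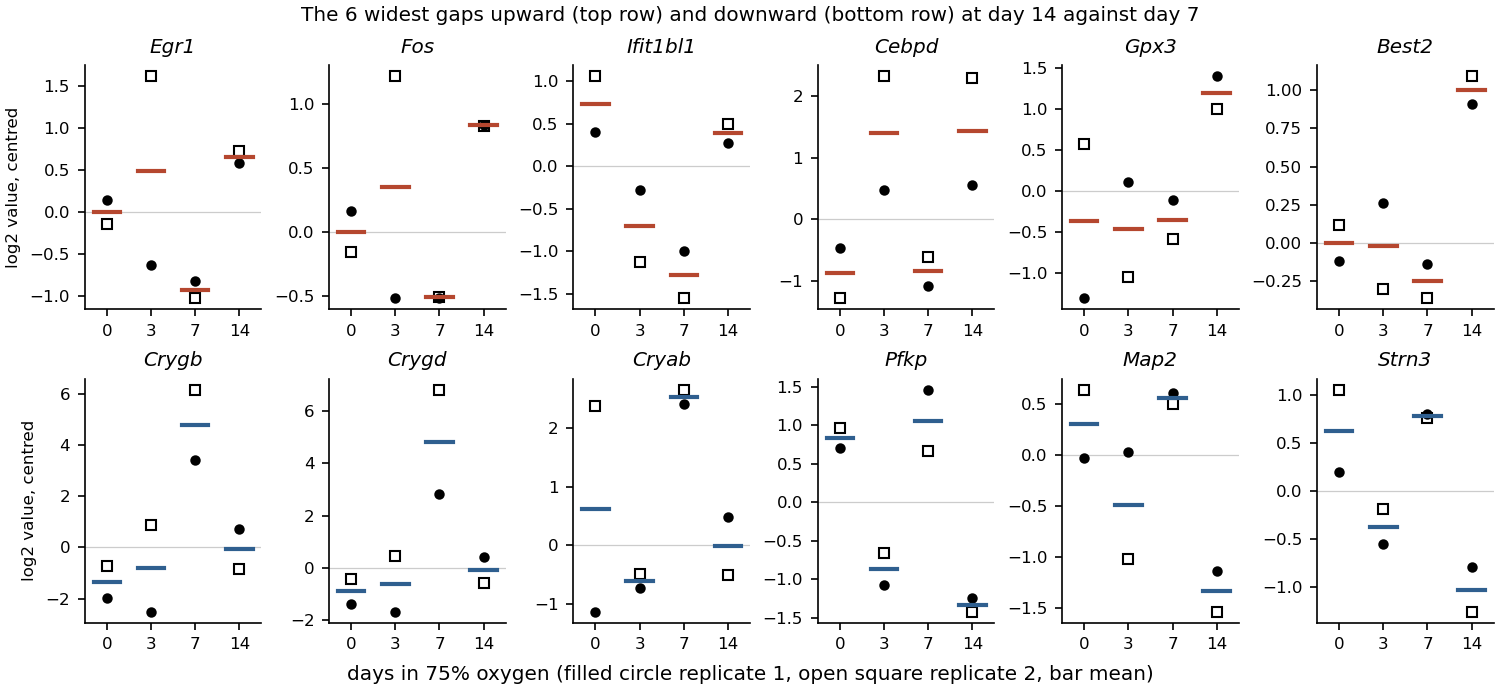
Centred log2 values of the 6 genes with the widest gap upward (top) and downward (bottom) between day 14 and day 7, on all 8 arrays by days in oxygen, with replicate 1 as a filled circle, replicate 2 as an open square and the mean of a time as a bar. In *Fos* the day 14 arrays read 0.84 and 0.83 and the day 7 arrays -0.52 and -0.51, and in *Crygb* the day 7 arrays (3.41 and 6.15) lie above all others.

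Immediate early genes held the widest gaps upward. The promoter of *Fos* is shown for its well-studied elements: the 100 bases before its RefSeq start (GRCm38.p6) hold TGACGT, the core of the element through which cyclic AMP acts, and the start-placing element TATAAA, both in capitals.
Fos, chr12:85473790-85473889, plus strand: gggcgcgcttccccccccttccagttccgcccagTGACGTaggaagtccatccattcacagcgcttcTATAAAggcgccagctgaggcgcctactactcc
On either strand, TGACGT is found in 4.09% and TATAAA in 5.56% of the same window before 32851 starts. The same window before *Junb*, another immediate early gene, was also searched and held neither.

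*Egr1*, a zinc finger transcription factor, stood at 0.59 and 0.73 on the day 14 arrays, against -0.83 and -1.03 on the day 7 arrays. This was the widest gap upward (1.42), with a difference of 1.59 ± 0.64 (SE, n = 2 each, adjusted p = 0.478 in limma) and 1.52 without day 14 replicate 2. *Fos*, a subunit of the AP-1 transcription factor, had 0.84 and 0.83 at day 14 against -0.52 and -0.51 at day 7, a difference of 1.35 ± 0.50. For both genes the pair of arrays of each day lay close together, but the arrays of day 3 did not, with -0.64 and 1.62 for *Egr1* and -0.52 and 1.22 for *Fos*. The control arrays stood at 0.14 and -0.14 for *Egr1* and at 0.16 and -0.16 for *Fos*, so that day 14 lay above them and day 7 below them.

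*Junb*, which pairs with FOS in AP-1, stood at 0.44 and 1.21 at day 14 and at -0.51 and -0.68 at day 7. *Ier2*, an immediate early gene of the nucleus, had 0.10 and 0.24 at day 14 against -0.52 and -0.63 at day 7 as the mean of its probe set. *Atf3*, a stress-induced transcription factor, had 0.42 and 1.25 at day 14 against -0.07 and -0.46 at day 7. In all of them both day 14 arrays were above both day 7 arrays. Of 28 measured genes of the list, 19 lay higher on both day 14 arrays (67.9%, against 34.5% of all genes) and 0 lay lower, with a median difference of 0.38 (0.24 without day 14 replicate 2, after which 25 of 28 differences were positive). The time of day at which retinas were taken is not given in the sources used here.

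Glial and immune genes lay higher at day 14 than at day 7, most of all on day 14 replicate 2. Many of them stood about as high on day 3 replicate 2. *Gfap* had 0.66 and 3.08 at day 14 against -0.44 and -0.17 at day 7 on the probe set with its largest difference (2.17 ± 1.09, adjusted p = 0.532 in limma), and 0.96 without day 14 replicate 2. All 3 probe sets of *Gfap* lay higher. *Cebpd*, a transcription factor of acute inflammation, had 0.56 and 2.29 at day 14 against -1.08 and -0.61 at day 7, the largest mean difference upward of a probe set that names 1 gene (2.26 ± 0.74). *Socs3*, which damps cytokine signals, stood at 0.33 and 2.24 at day 14 against -0.20 and -0.31 at day 7 over its 3 probe sets. In these genes day 14 and day 7 did not overlap, while the day 14 arrays were farther from each other than replicate 1 was from day 7. Day 3 replicate 2 stood near day 14 replicate 2, at 3.26 for *Gfap*, 2.32 for *Cebpd* and 1.97 for *Socs3*. Over the gliosis list 15 of 33 genes lay higher (45.5%) and 1 lower (3.03%), with a median difference of 0.35, against 0.08 without day 14 replicate 2.

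Of the microglia and macrophage list, 19 of 29 genes lay higher (65.5%, against 34.5% of all genes) and 0 lower. *Ly86*, which binds a receptor of the toll-like family, stood at 0.07 and 2.10 at day 14 and -0.43 and -1.12 at day 7. *Fcer1g*, the signalling chain of Fc receptors, had 0.24 and 1.29 at day 14 against -0.23 and -0.30 at day 7, and *P2ry13*, a nucleotide receptor of microglia, had 0.18 and 0.43 at day 14 against -0.22 and -0.26 at day 7. On day 3 replicate 2, *Ly86* stood at 2.03, *Fcer1g* at 1.74 and *P2ry13* at 0.82. The list's median was 0.05 and 0.79 on day 14 replicates 1 and 2, -0.14 and -0.03 at day 7, and 0.01 and 0.48 at day 3. Its median difference between day 14 and day 7, 0.54, was 0.12 without day 14 replicate 2. More cells of a type and more RNA per cell cannot be told apart in whole retina, here and for every cell type list below.

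Complement, the cascade that tags cells for removal, had 7 of 13 genes higher (53.8%) and 1 lower. *C1qc* and *C1qb* encode chains of its first component. *C1qc* stood at 0.24 and 2.07 at day 14 against -0.39 and -0.17 at day 7, and *C1qb* at 0.03 and 1.73 at day 14 against -0.38 and -0.27 at day 7. *C2*, a protease of the cascade, was less uneven, with 0.61 and 1.16 at day 14 against 0.25 and -0.52 at day 7, and all 3 of its probe sets lay higher. *Cd59a*, which protects cells from complement, was the gene that lay lower, at -0.24 and -0.76 at day 14 against 0.22 and 0.05 at day 7. On day 3 replicate 2, *C1qc* stood at 1.94 and *C1qb* at 1.79, but *C2* at -0.3. Over the list, the median difference of 0.53 was 0.17 without day 14 replicate 2.

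Of the interferon and antigen presentation list 10 of 24 genes lay higher (41.7%, against 34.5% of all genes) and 1 lower, and 8 lay higher after quantile normalization. The list's median difference of 0.47 was 0.08 without day 14 replicate 2. Its median on the arrays was 0.68 on day 14 replicate 2 and 0.64 on day 3 replicate 2. *Psmb8*, a subunit of the immunoproteasome, stood at 0.11 and 0.79 at day 14 and -0.21 and -0.32 at day 7, and *Irf1*, a transcription factor of the interferon response, at 0.23 and 0.79 at day 14 and -0.03 and -0.38 at day 7. *Stat2*, which carries interferon signals to the nucleus, ran the other way, with -0.13 and -0.32 at day 14 and 0.12 and 0.54 at day 7. *Ifit1bl1*, a gene of the interferon-induced Ifit family outside this list, had the gap next after *Fos*, with 0.28 and 0.50 at day 14 against -1.0 and -1.55 at day 7 (1.66 ± 0.35, adjusted p = 0.316 in limma). Its control arrays, at 0.41 and 1.06, lay near those of day 14.

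Nuclear RNAs and splicing factors lay lower at day 14. *Meg3*, a long noncoding RNA of the nucleus, stood at -0.33 and -0.81 at day 14 and 0.78 and 0.98 at day 7 as the mean of its probe sets, and all 11 of them lay lower. *Malat1*, the abundant noncoding RNA of nuclear speckles, had -0.61 and -0.54 at day 14 against 0.59 and 0.38 at day 7, lower on 6 of 7 probe sets. For *Malat1* and *Meg3*, which were named for the width of their gaps, the replicate 1 array alone gave nearly the same difference as both (-1.09 against -1.06 for *Malat1* and -1.21 against -1.45 for *Meg3*). Both were also low at day 3, at -0.8 and -0.67 for *Meg3* and -0.52 and -0.17 for *Malat1*.

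*Kcnq1ot1*, an imprinted noncoding RNA, had -0.43 and -0.66 at day 14 against 1.46 and 1.03 at day 7 (-1.79 ± 0.33, adjusted p = 0.29 in limma), and 3 of its 6 probe sets lay lower. *Pnisr*, a serine- and arginine-rich nuclear protein, stood at -0.38 and -0.89 at day 14 against 0.45 and 0.44 at day 7, lower on all 7 probe sets. *Rbm25*, a splicing regulator, stood at -0.38 and -0.75 at day 14 against 0.34 and 0.45 at day 7, lower on all 6. Of the splicing and nuclear RNA list, 32 of 50 genes lay lower (64.0%, against 14.4% of all genes) and 2 higher, with a median difference of -0.39 (-0.21 without day 14 replicate 2). Its median was -0.07 and -0.33 at day 14, 0.15 and 0.18 at day 7 and 0.08 and 0.19 on the control arrays. At day 3 the list's median was -0.19 and -0.17, so low values were not particular to day 14.

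Transcripts of the ribosome and of the respiratory chain lay higher at day 14. Of 38 cytosolic ribosomal protein genes 30 lay higher (78.9%, against 34.5% of all genes) and 0 lower, with a median difference of 0.37 (0.33 without day 14 replicate 2, and 0.23 or 0.50 when replicate 2 or replicate 1 of day 7 was left out). *Rpl14*, a protein of the large subunit, had the widest gap of the list, at 0.13 and 1.0 at day 14 and -0.45 and -1.28 at day 7, and *Rpl37*, of the same subunit, had 0.07 and 0.64 at day 14 against -0.35 and -0.92 at day 7. In both the arrays of a day lay far apart. *Rpl35*, also of the large subunit, stood at 0.09 and 0.27 at day 14 and -0.26 and -0.72 at day 7, higher on all 6 probe sets. *Rps19*, of the small subunit, had 0.20 and 0.18 at day 14 against -0.15 and -0.65 at day 7. The list's median was 0.06 and 0.17 at day 14, -0.11 and -0.36 at day 7 and -0.02 and -0.15 on the control arrays. At day 3 it was 0.22 and 0.09, so here too high values were not particular to day 14. Several ribosomal protein genes have processed pseudogenes of near-identical sequence, so their probe sets are less certain.

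Of 68 respiratory chain genes 51 lay higher (75.0%) and 3 lower, with a median difference of 0.37 (0.28 without day 14 replicate 2). *Ndufa9*, a subunit of complex I, had 0.33 and 0.25 at day 14 against -0.26 and -0.29 at day 7. *Uqcr10*, of complex III, stood at 0.05 and 0.33 at day 14 against -0.35 and -0.68 at day 7, and *Atp5o*, of the ATP synthase, at 0.09 and 0.28 at day 14 against -0.39 and -0.61 at day 7. The list's medians were 0.05 and 0.23 at day 14 and 0.30 and 0.13 at day 3. High values were thus not particular to day 14. At day 7 the medians were -0.13 and -0.28, and on the control arrays -0.02 and -0.12. Control replicate 2 thus lay near day 7 replicate 1. For *Uqcr10* it lay below that array (-0.54 against -0.35).

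**Figure D4:**
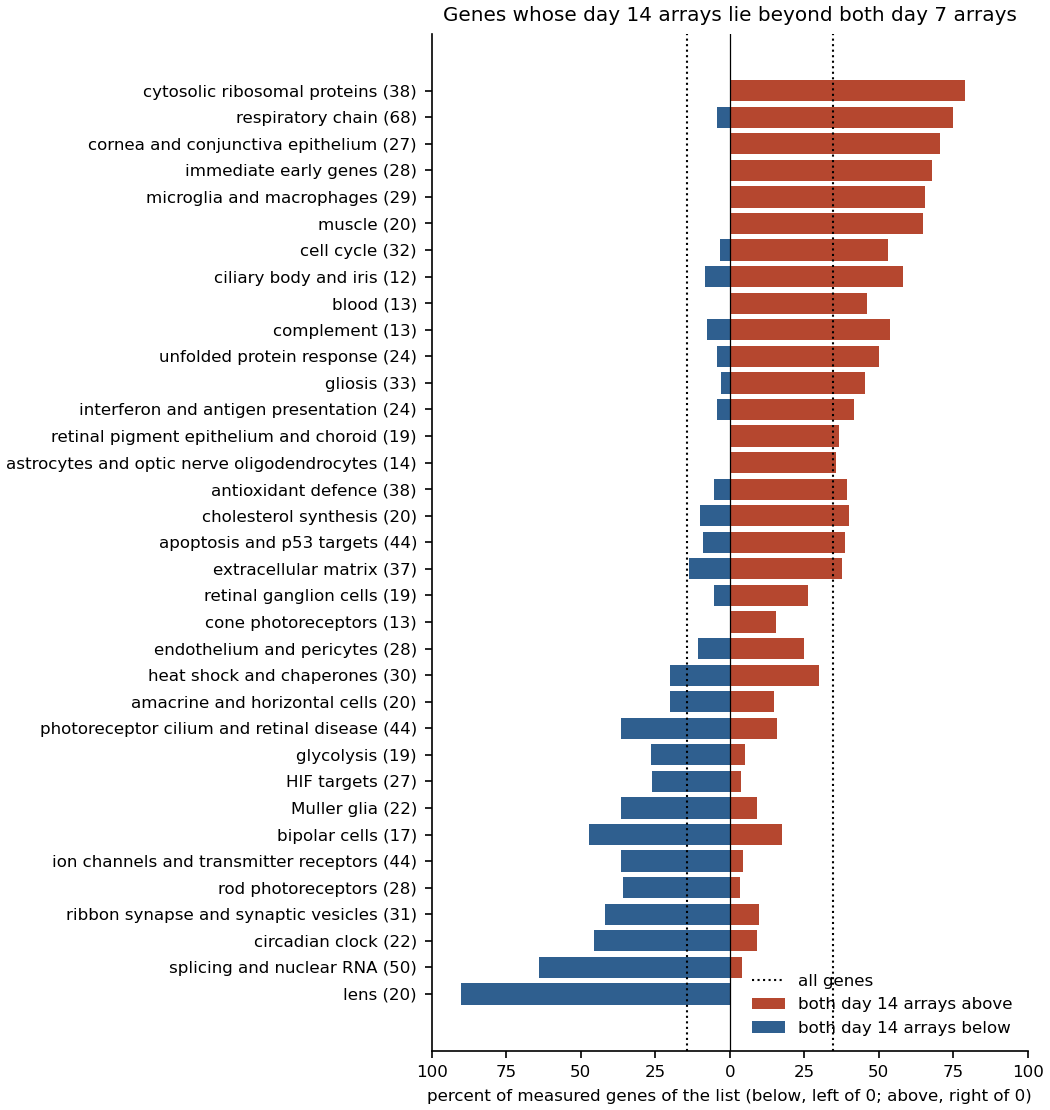
Percent of the measured genes of each list (their number in brackets) whose day 14 arrays both lie above both day 7 arrays (right of 0) or both below them (left of 0). Dotted lines give the shares of all genes (34.5% above and 14.4% below), and the longest bars are ribosomal proteins to the right (78.9%) and lens to the left (90.0%).

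Rod genes were lower on day 14 replicate 2 and near day 7 on replicate 1. Of 28 rod genes 10 lay lower (35.7%, against 14.4% of all genes) and 1 higher, *Prph2*, the disc rim protein peripherin, with a gap of 0.01. The list's median was 0.03 and -0.36 on day 14 replicates 1 and 2, against 0.02 and 0.10 on day 7 replicates 1 and 2, and its median difference of -0.26 was -0.05 without day 14 replicate 2. On the day 3 arrays the list's median was -0.29 and -0.35, near that of day 14 replicate 2. *Gnat1*, the rod transducin, stood at 0.02 and -0.15 at day 14 and 0.02 and 0.15 at day 7, which overlapped. *Pde6b*, a catalytic subunit of the rod phosphodiesterase, also overlapped, with 0.04 and -0.50 at day 14 against 0.01 and 0.11 at day 7.

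A few rod genes lay lower on both arrays by like amounts. *Samd7*, a regulator of rod gene expression, stood at -0.63 and -0.98 at day 14 and 0.43 and 0.78 at day 7 (-1.41 ± 0.24, adjusted p = 0.41 in limma on gene means), and the difference without day 14 replicate 2 was -1.23. *Guca1b*, which activates guanylate cyclase as calcium falls, had -0.34 and -0.27 at day 14 against 0.16 and 0.30 at day 7. *Rgs9*, which speeds the shutoff of transducin, had -0.17 and -0.20 at day 14 against 0.26 and 0.33 at day 7, lower on 2 of its 3 probe sets and higher on 1. These 3 had differences of -1.23, -0.57 and -0.47 on replicate 1 alone. They were named for the widest gaps of the list, which fixes a difference on replicate 1, so they cannot be set against the list's median.

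*Rpgrip1*, a scaffold of the photoreceptor connecting cilium, was lower on all 4 of its probe sets, at -0.66 and -0.94 at day 14 and 0.43 and 0.50 at day 7 over their mean (-1.27 ± 0.22). *Mak*, a kinase that limits cilium length, stood at -0.32 and -1.07 at day 14 against 0.26 and 0.56 at day 7. Of 44 genes of the photoreceptor cilium and of inherited retinal disease, 16 lay lower (36.4%) and 7 higher (15.9%), and the median difference of -0.12 was near 0 without day 14 replicate 2. Of 13 cone genes 2 lay higher (15.4%, against 34.5% of all genes) and 0 lower, with a median difference of -0.05 (0.08 without day 14 replicate 2). After quantile normalization 1 lay higher and 2 lower. *Pde6h*, the inhibitory subunit of the cone phosphodiesterase, was one of the higher genes, with 0.00 and 0.03 at day 14 against -0.19 and -0.72 at day 7. *Thrb*, a thyroid hormone receptor of cones, overlapped between the days, with -0.16 and -0.28 at day 14 against -0.37 and 1.89 at day 7.

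Bipolar cells carry the photoreceptor signal onward, and 8 of 17 of their genes lay lower (47.1%) and 3 higher. *Cacna2d3*, a calcium channel subunit, stood at -0.29 and -0.79 at day 14 and 0.37 and 0.29 at day 7, and *Grik1*, a kainate receptor of OFF bipolar cells, at -0.60 and -0.32 at day 14 and 0.52 and 0.02 at day 7. *Otx2*, a transcription factor of photoreceptors and bipolar cells, had -0.13 and -0.86 at day 14 against 0.14 and 0.20 at day 7. The rod bipolar kinase *Prkca* had -0.15 and -0.72 at day 14 against 0.10 and 0.46 at day 7. *Trpm1*, the channel of ON bipolar cells, ran the other way, with 0.50 and 0.93 at day 14 against 0.25 and -0.37 at day 7. Over the list, the median difference was -0.36 (-0.23 without day 14 replicate 2).

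Synaptic and channel genes were lower as well. Of 31 genes of the ribbon synapse and of synaptic vesicles 13 lay lower (41.9%) and 3 higher, and of 44 ion channels and transmitter receptors 16 lay lower (36.4%) and 2 higher. *Rims2*, an active zone scaffold, stood at -0.21 and -0.34 at day 14 and 0.34 and 0.07 at day 7. *Scn8a*, a sodium channel, had -0.20 and -0.52 at day 14 against 0.22 and 0.30 at day 7, and *Kcnma1*, a calcium-activated potassium channel, had -0.08 and -0.67 at day 14 against 0.25 and 0.22 at day 7. Median differences were -0.26 for the synaptic list and -0.25 for the channels, against -0.14 and -0.12 without day 14 replicate 2, and the channels had -0.07 without day 7 replicate 2. Amacrine and horizontal cells (3 of 20 higher, 4 lower) and ganglion cells (5 of 19 higher, 1 lower) had median differences of -0.04 and -0.07. Omitting replicate 1 of day 7 gave -0.36 for amacrine and horizontal cells and -0.37 for ganglion cells, and omitting replicate 2 of day 7 gave 0.02 and 0.27. Quantile normalization gave ganglion cells 0.06, so neither list had a settled direction.

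Müller cell genes split. Of 22 genes, 8 lay lower (36.4%) and 2 higher. The lower ones included *Rlbp1*, the retinaldehyde binding protein, at -0.03 and -0.24 at day 14 and 0.22 and 0.37 at day 7. *Slc1a3*, the glutamate transporter, had -0.11 and -0.47 at day 14 against 0.22 and 0.17 at day 7, and *Aqp4*, the glial water channel, had -0.14 and -0.99 at day 14 against 0.18 and 0.80 at day 7. *Sox2* and *Sox9*, transcription factors of Müller cells, were the ones that lay higher, with gaps of 0.11 and 0.03. The list's median difference was -0.19 (-0.10 without day 14 replicate 2), while that of the gliosis list was 0.35.

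**Figure D5:**
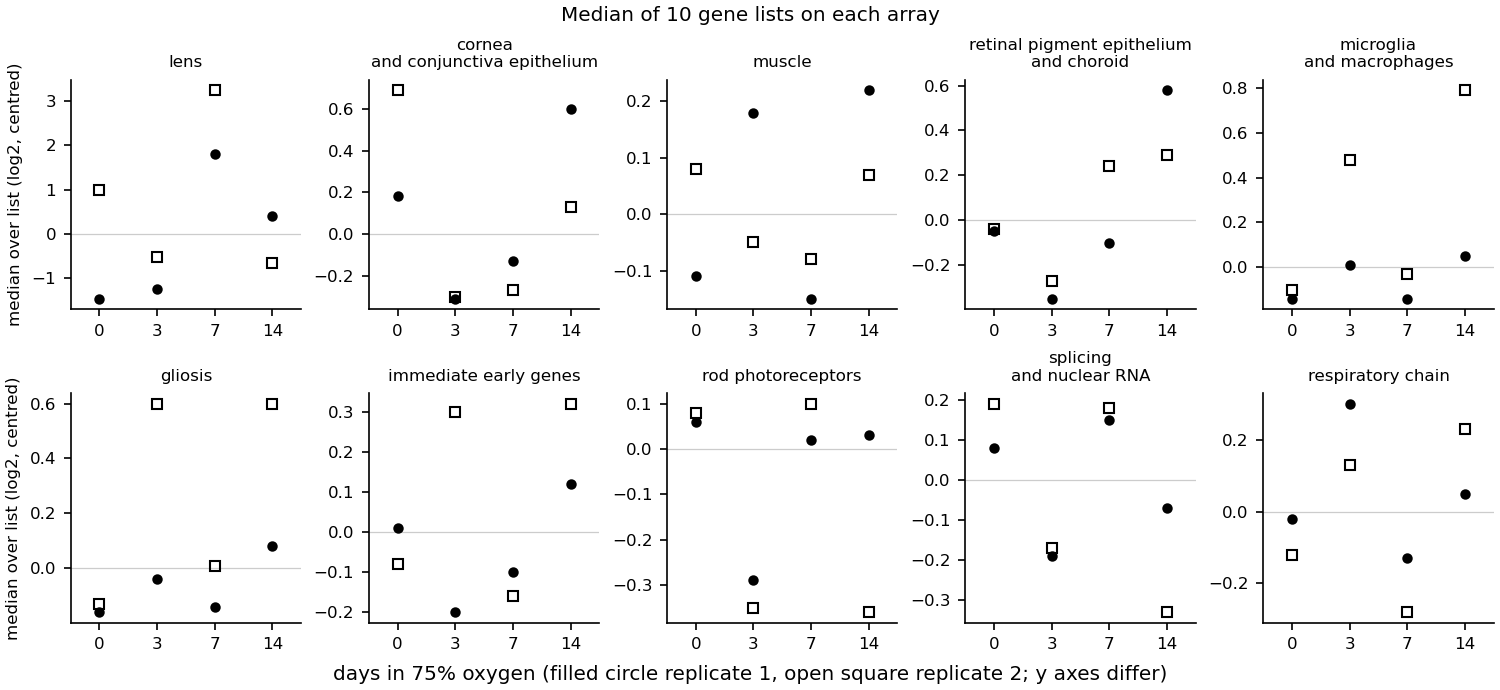
Median of the centred log2 values over the genes of 10 lists on each of the 8 arrays, by days in oxygen, with replicate 1 as a filled circle and replicate 2 as an open square (the vertical axes differ). Rods, microglia and gliosis stand at -0.36, 0.79 and 0.60 on day 14 replicate 2, and at -0.35, 0.48 and 0.60 on day 3 replicate 2. The lens stands out on the day 7 arrays (1.81 and 3.25).

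Metabolic genes included the lower gene with the next widest gap after the crystallins. *Pfkp*, an isoform of phosphofructokinase, the pacing enzyme of glycolysis, stood at -1.25 and -1.42 at day 14 and 1.46 and 0.66 at day 7, a difference of -2.40 ± 0.29 (adjusted p = 0.29 in limma), with all 3 of its probe sets lower. The control arrays, at 0.71 and 0.96, lay near day 7, and the day 3 arrays, at -1.08 and -0.66, lay nearer day 14. Of 19 glycolysis genes 5 lay lower (26.3%) and 1 higher, *Ldhb*, a lactate dehydrogenase, at 0.10 and 0.36 at day 14 against -0.03 and -0.44 at day 7. The median difference of the list was -0.22, which was -0.06 when replicate 1 of day 7 was left out and -0.37 when its replicate 2 was.

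Targets of the hypoxia-inducible factors, which are switched off when oxygen is plentiful, had 7 of 27 genes lower (25.9%) and 1 higher, with a median difference of -0.19. *Kdm3a*, a histone demethylase, stood at -0.16 and -0.55 at day 14 and 0.96 and 0.15 at day 7, and *Ero1a*, an oxidase of the endoplasmic reticulum, at -0.18 and -0.92 at day 14 and 0.31 and 0.47 at day 7. The gene that lay higher was *Egln3*, an oxygen-sensing hydroxylase, with 0.35 and 0.44 at day 14 against -0.20 and -0.53 at day 7. Leaving out day 14 replicate 2 gave the list a median of -0.14, and leaving out day 7 replicate 1 gave 0.06, so the sign rests on that array.

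Antioxidant defence held both directions. *Gpx3*, the secreted glutathione peroxidase, stood at 1.40 and 1.0 at day 14 and -0.11 and -0.59 at day 7 (1.55 ± 0.64, adjusted p = 0.482 in limma). Its control arrays lay apart, at -1.31 and 0.57. *Gpx4*, which repairs oxidised membrane lipids, had 0.16 and 0.11 at day 14 against -0.20 and -0.35 at day 7, and *Txn1*, thioredoxin, had 0.04 and 0.25 at day 14 against -0.20 and -0.28 at day 7. Of 38 genes 15 lay higher (39.5%, against 34.5% of all genes) and 2 lower. *Gclc*, the catalytic subunit of the first enzyme of glutathione synthesis, was lower on both its probe sets, at 0.02 and -0.10 at day 14 against 0.14 and 0.12 at day 7. Superoxide dismutases 1 and 2 (*Sod1* and *Sod2*) overlapped between the days.

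The circadian clock list had 10 of 22 genes lower (45.5%) and 2 higher. *Rora* and *Rorb*, nuclear receptors that drive clock genes, stood at -0.19 and -0.66 at day 14 and 0.23 and 0.61 at day 7 for *Rora*, and at -0.31 and -0.96 at day 14 and 0.20 and 0.51 at day 7 for *Rorb*. *Per3*, a repressor of the clock, had -0.11 and -0.22 at day 14 against 0.41 and 0.09 at day 7, and *Clock* itself had -0.18 and -0.75 at day 14 against 0.23 and 0.06 at day 7. The genes that lay higher were *Wee1*, a cell cycle kinase, and *Tspan4*, a tetraspanin that is no clock gene. The median difference was -0.16, which was -0.19 without day 14 replicate 2 and -0.09 when replicate 2 of day 7 was omitted.

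Further genes were named by the width of their gap downward. *Map2*, which binds microtubules in dendrites, stood at -1.14 and -1.54 at day 14 and 0.61 and 0.50 at day 7 (-1.89 ± 0.38, lower on 3 of 4 probe sets). *Strn3*, a scaffold of protein phosphatase 2A, had -0.80 and -1.26 at day 14 against 0.80 and 0.76 at day 7, but only 1 of its 3 probe sets lay lower. *Fryl*, a relative of the fly gene furry, had -0.52 and -0.63 at day 14 against 0.97 and 1.21 at day 7, lower on 3 of 4 probe sets. These are gaps of 1.64, 1.56 and 1.49, in which the arrays of each day lay near each other.

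*Trpm3*, a cation channel, stood at -0.65 and -1.65 at day 14 and 0.84 and 0.87 at day 7, with 5 of 6 probe sets lower and 1 higher. *Pex5l*, a partner of pacemaker channels, had -0.65 and -1.01 at day 14 against 0.98 and 0.84 at day 7, yet its 4 probe sets held 1 lower and 1 higher. *Tmem86b*, an enzyme that cleaves lysoplasmalogens, had -0.96 and -1.72 at day 14 against 0.90 and 0.57 at day 7, with 1 lower and 1 higher of 3. Probe sets of 1 gene thus disagreed in several of these, which read different parts of a transcript or different transcripts. Of 9010 genes with 2 or more probe sets, 768 had all of them higher, 348 had all of them lower and 796 had probe sets in both directions.

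Genes in which every one of 3 or more probe sets lay in the same direction numbered 134 lower and 156 higher, of 4315 with that many. The genes named in the rest of this paragraph were chosen after these values were seen. *Zbtb20*, a zinc finger repressor, was lower on all 9 probe sets, by differences of -1.78 to -1.08. *Prpf39*, a splicing factor, was lower on all 3 (-1.83 to -1.52), *Pnn*, a protein of nuclear speckles, on all 3 (-1.97 to -1.06), and *Gria2*, a subunit of AMPA receptors, on all 3 (-0.95 to -0.70). Among the higher genes, *Fmod*, a proteoglycan of collagen fibres, had all 6 probe sets higher (0.85 to 1.64), *Tspo*, a mitochondrial protein made in activated microglia, all 3 (0.62 to 1.48) and *Siva1*, an apoptosis regulator, all 4 (0.83 to 1.15). Their probe sets measure the same RNA on the same 4 arrays and are no replicates.

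The lower probe sets also differed in kind. Of those in which every day 14 array was 2-fold below every day 7 array, 26.3% named no gene, and of all lower ones 26.4%, against 16.0% of the higher ones and 20.3% of all 45037. Probe sets that the maker marks as shared between transcripts made up 5.92% of the lower ones, 14.4% of the higher ones and 10.1% of all.

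Genes of the cornea and of muscle lay higher at day 14, in contrast to the lens. Of 27 genes of cornea and conjunctiva epithelium 19 lay higher (70.4%, against 34.5% of all genes) and 0 lower, with a list median of 0.60 and 0.13 at day 14, -0.13 and -0.27 at day 7, and 0.18 and 0.69 on the control arrays. *Krt6b*, a keratin of stratified epithelia, stood at 1.16 and 0.30 at day 14 and -0.30 and -2.42 at day 7. *Krt4*, a keratin of moist epithelia, had 0.51 and 0.44 at day 14 against -0.23 and -0.37 at day 7, and *Aqp5*, a water channel of the cornea, had 0.89 and 0.22 at day 14 against -0.22 and -1.09 at day 7. In each of them the day 14 arrays lay above the day 7 arrays, and 1 control array of each was higher than both. Over the list, the median difference was 0.59, which was 0.82 without day 14 replicate 2 and 0.36 when replicate 1 of that day was omitted.

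Of 20 muscle genes 13 lay higher (65.0%) and 0 lower, with a list median of 0.22 and 0.07 at day 14 and -0.15 and -0.08 at day 7 (median difference 0.42, which was 0.47 without day 14 replicate 2 and 0.25 when replicate 1 of that day was omitted). *Tnnt3*, troponin T of fast muscle, stood at 0.54 and 0.10 at day 14 and -0.45 and -0.42 at day 7, and *Mb*, myoglobin, at 0.17 and 0.07 at day 14 and -0.37 and -0.24 at day 7. Of 19 genes of pigment epithelium and choroid 7 lay higher (36.8%, near the 34.5% of all genes) and 0 lower, with a median difference of 0.13 that was -0.08 when day 14 replicate 1 was left out and -0.32 when day 7 replicate 1 was. *Pmel* and *Mlana*, proteins of the melanosome, differed widely between control arrays (-1.53 and 1.45 for *Pmel*), with 0.88 and 1.07 at day 14 and 0.50 and -0.50 at day 7 for *Pmel*. Of 12 genes of ciliary body and iris 7 lay higher (58.3%) and 1 lower. Blood genes had 6 of 13 higher (46.2%) and 0 lower, with a median difference of 0.20 (0.12 without day 14 replicate 2).

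Further genes had wide gaps or large mean differences upward. *Best2*, a bestrophin channel of the ciliary epithelium, stood at 0.91 and 1.09 at day 14 and -0.14 and -0.36 at day 7 (1.25 ± 0.22, adjusted p = 0.29 in limma), above all other arrays. *Plac8*, a small protein of epithelia and immune cells, had 0.50 and 0.79 at day 14 against -0.53 and -0.80 at day 7 (1.31 ± 0.17), and *Adh1*, an alcohol dehydrogenase that oxidises retinol, had 0.87 and 0.56 at day 14 against -0.44 and -0.82 at day 7. *Slc26a4*, the anion exchanger pendrin, had 1.10 and 1.02 at day 14 against 0.04 and -1.46 at day 7. *Penk*, which encodes the precursor of enkephalins, had 1.82 and 0.67 at day 14 against -0.06 and -1.85 at day 7. The control arrays of *Plac8* (0.97 and 0.79) and *Adh1* (0.44 and 1.86) were at or above day 14 on at least 1 array, and those of *Slc26a4* (-2.01 and 0.42) lay far apart. The part that carried-over tissue has in the values of these genes was not tested.

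*Car3*, a carbonic anhydrase of muscle and fat, had 0.29 and 0.97 at day 14 against -0.62 and -1.15 at day 7, with 2 of its 4 probe sets higher and 1 lower. *Raly*, an RNA-binding protein, had 0.68 and 0.71 at day 14 against -0.24 and -0.42 at day 7, with 1 probe set higher and 1 lower.

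Of 19 genes that the study names and the array measures, 6 lay higher (31.6%, against 34.5% of all genes), 1 lower (5.26%, against 14.4%) and the rest overlapped. Besides *Gfap* and the complement genes, *Bcl3*, a nuclear regulator of NF-kappaB, stood at 0.40 and 2.41 at day 14 and -0.36 and -0.09 at day 7. *Lin7b*, a scaffold that holds channels at membranes, had 0.03 and 1.5 at day 14 against -0.26 and -0.32 at day 7, and *Siva1* had 0.06 and 0.83 at day 14 against -0.24 and -0.85 at day 7 over its 4 probe sets. In all of them day 14 replicate 2 was the higher array of its day. *Bcl3* stood at 2.65 on day 3 replicate 2. *Edn2*, an endothelin released by stressed photoreceptors, overlapped, at 0.01 and 3.12 at day 14 and -0.01 and 2.07 at day 7, as did *Gadd45b*, a stress sensor, at 0.11 and 1.20 at day 14 and -0.34 and 0.16 at day 7. *Oxr1*, an oxidation resistance gene, also overlapped, at 0.07 and -0.58 at day 14 and -0.18 and 0.42 at day 7. The list was chosen by the study on these samples, so its count is no independent evidence of direction.

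Large mean differences could rest on a single array of the 4 compared. *Gnb1*, the beta subunit of transducin and of other G proteins, had a mean difference of 2.24 ± 2.05 on 1 of its 3 probe sets, with -0.24 and 0.62 at day 14 and 0.32 and -4.41 at day 7, so that the days overlapped. *Epb41l2*, a cytoskeletal protein beneath the membrane, had -3.13 ± 2.16, with 0.24 and -4.06 at day 14 against -0.31 and 2.75 at day 7. Of its 5 probe sets, 3 lay lower, but not this one. The difference of *Gnb1* was -0.13 once day 7 replicate 2 was left out. Low values of these probe sets were not confined to 1 array of the series. *Gnb1* stood at -3.17 on control replicate 2 and -3.95 on day 3 replicate 1, and *Epb41l2* at -4.07 on day 3 replicate 2. At the border of the rule, *Saal1*, *Ifnar2* and *Nr1i2* lay just inside on the higher side, with gaps of 5.2e-06, 1.7e-05 and 3.7e-05, while *Kap*, *Macroh2a3* and *Gm10421* had no gap and lay just outside.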

How the data were processed

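As deposited, values are on the log2 scale. The authors obtained them with RMA, which corrects background, normalizes by quantiles and summarises the probes of a set (its version is not given in the sources used here). In the table every probe set has a median of 0 over the arrays, and no source used here describes that centring. The study's methods describe MAS5 values with present calls, which were not used here. Of 45101 probe sets, 64 controls were set aside and 45037 were tested, of which 34945 name 1 gene through the platform annotation, 932 several and 9160 none. No filter on signal was possible. Array medians lay between -0.017 and 0.03, and the number of arrays limits the precision. Arrays were grouped by the time in their titles.

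The 4 times were fitted as separate means with limma 3.58.1 in R 4.3.3, through lmFit and eBayes (4 residual and 2.71 prior degrees of freedom). The p-values of day 14 minus day 7 were adjusted by the Benjamini-Hochberg method, with 0.05 as threshold. Errors are standard errors from this fit, with 2 arrays a time. The fit was run on simulated data with 200 altered probe sets and independent noise on each array. The measured arrays were correlated with each other, so the outcome of that run does not carry over to them. A gap is the lowest array of the higher day minus the highest array of the lower day. Named are, among probe sets with 1 gene, the 12 widest gaps and the 5 largest mean differences in each direction, up to 4 members of each of 36 gene lists by gap, and genes that the study names. Further list members were picked after their values were seen. List members are given as the mean of a gene's probe sets, and single genes otherwise by 1 probe set. The comparison, the lists and the genes were chosen with earlier results of these data known, so no list was tested and lists are given by counts and medians. Values in pairs are replicate 1 and then replicate 2. Counts, correlations and figures came from Python 3.11.15 (scipy 1.17.1, numpy 2.4.6, pandas 2.3.3, matplotlib 3.10.9). Promoter sequences are from RefSeq (GRCm38.p6), in which all 5 genes shown were matched by symbol.

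The replicate numbers are in the titles. Deviations from the group means of same-numbered arrays correlated at -0.38 between day 14 and day 7 and at -0.40 to 0.55 between other times, so the numbers were not taken to pair the arrays. Alternatives were a replicate block, array medians set to 0, another round of quantile normalization, a fit of the 4 arrays alone, robust eBayes, genes in place of probe sets, folds from linear means, a one-way analysis of variance (plain, while the methods add an error model across genes), and leaving out each array in turn. A replicate block on the 4 arrays, crossed replicate numbers, and leaving out day 3 replicate 2 with day 14 replicate 2 were added after the data were seen. Quantitative PCR and histology were not used here. Some genes that appear in the study are left out.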

Additional observations from a re-analysis of the deposited data

Results flagged for a closer look

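Between its 3' and 5' probe sets, *Gapdh* differed by 1.43 on day 14 replicate 2 and by 0.12 on day 7 replicate 1, both above the highest control array (0.06). For beta-actin the same difference was 1.24 on day 14 replicate 2, against 0.44 on the highest control array. The mean difference of the 4 poly-A controls, bacterial transcripts added to the RNA before labelling, was 1.22 on day 14 replicate 2 and -0.12 on day 7 replicate 1, above the -0.35 of the highest control array. These control probe sets enter no comparison of genes, and they are given because they exceeded the level of the control arrays.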

How the results depend on the processing

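With 2 arrays a time, leaving out 1 array changed most counts, which then compare 2 arrays with 1. Probe sets higher on every day 14 array ranged from 16842 to 21095 and lower ones from 12553 to 14566. Non-overlapping ones with a 2-fold difference ranged from 96 (without day 7 replicate 2) to 888 higher and from 495 (without day 14 replicate 2) to 2453 lower, and those with a 2-fold gap from 20 to 369 higher and from 192 to 1360 lower. A further quantile normalization gave 379 higher with a 2-fold difference and 39 with a 2-fold gap. Genes in place of probe sets, of which there are fewer, gave 6280 higher and 2626 lower, 85 and 132 with a 2-fold difference, and 23 lower with a 2-fold gap.

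Adjusted p called 0 to 1 probe sets over all arrays left out. The 1 call, without day 7 replicate 1, was *Crygf*, at -4.84 (adjusted p = 0.00655 in limma). The plain analysis of variance called 1 (*Mtpn*, -0.52, adjusted p = 0.0118), and the other alternatives called 0. At an unadjusted p, leaving out an array gave 1448 (without day 14 replicate 2) to 5796 probe sets against 4633, and 2877 without day 7 replicate 2. Genes gave 2082, the analysis of variance 2716, and leaving out day 3 replicate 2 with day 14 replicate 2 gave 2153. The cause was not tested.

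A replicate block on all 8 arrays gave 0 adjusted and 4383 unadjusted calls, and on the 4 arrays 0 and 2616. With crossed numbers the block gave 0 and 8051. The correlation of the replicate differences, 0.18, was 0.30 over genes and 0.49 with crossed numbers.

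Of 310 values of 31 named differences under the alternatives, 309 kept their direction, and the exception was *Gnb1*, whose difference ranged from -0.13 (without day 7 replicate 2) to 4.6 (without day 7 replicate 1). The named differences were chosen as the widest gaps or largest mean differences on these same arrays. Where the days do not overlap, leaving out an array cannot reverse the direction. The count was thus largely fixed by the choice and is no evidence of stability. Of 252 list medians, 239 kept their sign, and 9 of 36 lists changed sign at least once.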

Other observations

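Several gene groups not described above held both directions or small differences. Over all genes 34.5% lay higher and 14.4% lower, and several counts in these groups were near those shares. Of 24 genes of the unfolded protein response 12 lay higher at day 14, against 34.5% of all genes, and 1 lower. *Sdf2l1*, a partner of chaperones in the endoplasmic reticulum, stood at 0.13 and 0.26 at day 14 and -0.20 and -0.60 at day 7, and *Sel1l*, which helps export misfolded proteins for degradation, was the lower gene, at -0.05 and -0.72 at day 14 and 0.10 and 1.13 at day 7, lower on all 5 of its probe sets. Of 30 heat shock and chaperone genes 9 lay higher (30.0%) and 6 lower (20.0%). *Hspe1*, a mitochondrial chaperonin, had 0.09 and 0.34 at day 14 against -0.27 and -0.63 at day 7, and *Hspa4l*, a relative of heat shock protein 70, had -0.36 and -1.19 at day 14 against 0.22 and 0.46 at day 7. Of 44 genes of apoptosis and p53 targets 17 lay higher (38.6%) and 4 lower (9.09%). *Casp1*, the inflammatory caspase, stood at 0.20 and 0.31 at day 14 and -0.32 and -0.21 at day 7, *Bbc3*, a pro-death member of the Bcl-2 family, at 0.27 and 0.15 at day 14 and -0.31 and -0.15 at day 7, and *Mdm2*, which turns over p53, at -0.13 and -0.40 at day 14 and 0.20 and 0.40 at day 7.

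Of 32 cell cycle genes 17 lay higher (53.1%) and 1 lower. The lower one, *Ccna2* (cyclin A2), had the widest gap of the list, at -0.48 and -0.80 at day 14 and 0.53 and 0.61 at day 7, on both of its probe sets. *Mcm2*, a helicase of DNA replication, had 0.06 and 0.14 at day 14 against -0.22 and -0.36 at day 7. Of 20 cholesterol synthesis genes 8 lay higher (40.0%) and 2 lower, with *Insig1*, a sterol sensor, at 0.11 and 0.37 at day 14 against -0.31 and -0.60 at day 7. Of 28 genes of endothelium and pericytes 7 lay higher and 3 lower, among them *Rgs5*, a pericyte gene, at -0.49 and -0.75 at day 14 against -0.01 and 0.43 at day 7, and *Flt1*, a receptor of vascular growth factor, at -0.09 and -0.43 at day 14 against 0.23 and 0.12 at day 7. Of 14 genes of astrocytes and of oligodendrocytes of the optic nerve 5 lay higher and 0 lower, with *Mag*, a myelin protein, at 0.27 and 0.24 at day 14 against -0.21 and 0.08 at day 7. Of 37 genes of the extracellular matrix 14 lay higher (37.8%) and 5 lower (13.5%), with a median difference of 0.06 (-0.02 without day 14 replicate 2). *Fbln1*, a secreted matrix protein, had 0.64 and 0.52 at day 14 against -0.07 and -0.57 at day 7, and *Col6a3*, a chain of collagen VI, had -0.15 and 0.02 at day 14 against 1.27 and 0.89 at day 7.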
